A study of Danio rerio with 14 samples.

Results

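Vitellogenins and oestrogen receptors were followed in RNA-seq libraries from pools of uninjured zebrafish hearts. The members were 7 vitellogenin genes (*vtg1* to *vtg7*) and 3 nuclear oestrogen receptor genes (*esr1*, *esr2a* and *esr2b*), found by symbol among the 32520 genes of the count tables, and all 10 had a row. The tested fish were *il11a*OE, which carried *actb2:loxp-BFP-stop-loxp-il11a* together with *cmlc2:creER*, so that the cardiomyocyte promoter *cmlc2* drives CreER and recombination in these cells lets the *actb2* promoter express *il11a*, the fish homologue of the cytokine interleukin 11. Control fish carried the *actb2* transgene alone. All groups, controls included, had received 5 µM tamoxifen for 24 h, and hearts were collected 7 days (7 dpt, 3 *il11a*OE and 3 control libraries) or 7 months (7 mpt, 4 *il11a*OE and 4 control libraries) afterwards. Per the methods the fish were of the outbred Ekkwill strain and were adults of 6 months to 1 year at the tamoxifen bath. The reporting summary of the study names the Ekkwill or AB strains, without saying which gave these libraries. At 7 mpt the descriptions of the libraries carry a letter, F or M, with 2 libraries of each letter per genotype, and at 7 dpt they carry none. Neither the descriptions nor the methods define the letter, so the libraries are called F and M libraries.

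Vitellogenins are large lipoproteins that carry lipid, phosphate and calcium into the growing egg, where they are cut into yolk proteins. In egg-laying vertebrates they are made mainly by the liver of females, and oestradiol acting through nuclear oestrogen receptors switches their genes on, so that their transcripts are used in fish as a marker of oestrogen exposure, also in males. Zebrafish have a single alpha receptor gene, *esr1*, and a pair of beta receptor genes, *esr2a* and *esr2b*, and all of them encode transcription factors that bind oestradiol. Tamoxifen is itself a ligand of oestrogen receptors, and CreER is a recombinase fused to a mutated human oestrogen receptor domain. As no library came from fish without tamoxifen, its part in the levels below was not tested. Only *il11a*OE fish carried CreER, so effects of CreER and of *il11a* cannot be told apart in a genotype difference.

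On GRCz11, 6 of the 7 vitellogenin genes lie on the minus strand of chromosome 22, in the order *vtg1* (24730965 to 24738188), *vtg5* (24751101 to 24757785), *vtg4* (24784013 to 24791505), *vtg6* (24811396 to 24818066), *vtg7* (24851227 to 24858050) and *vtg2* (24869690 to 24880824). *vtg3*, which encodes a short form that lacks the phosvitin domain, lies apart from them on chromosome 11 (7359496 to 7380688, minus strand). *esr1* (26359756 to 26383375, minus strand) and *esr2a* (21583639 to 21635659, plus strand) are on chromosome 20, and *esr2b* (37022601 to 37072558, plus strand) is on chromosome 13. The vitellogenins of the cluster resemble each other closely, reads that mapped to several places were not counted, and 8.41% to 11.4% of the reads of the libraries of 7 mpt were left out for this reason. Their counts are therefore uncertain and are too low by an unknown share, which can differ between genes. At most 1.09% of the exon bases of a member overlap another gene.

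The libraries held 61691132 to 80703699 counts at 7 dpt, where read pairs were counted, and 73275884 to 130058630 at 7 mpt, where each mate was counted, so no level of one time point is set against the other. Levels are given as CPM, the counts of a gene scaled to a common library size, and as CPM per kb of exon where genes are compared with each other. *il11a* stood at 262 to 433 CPM in *il11a*OE hearts and at 41.0 to 90.5 CPM in control hearts of 7 mpt, and at 325 to 386 CPM in *il11a*OE hearts and 41.6 to 53.7 CPM in control hearts of 7 dpt, so that no library went against its genotype label. Cardiomyocyte markers were abundant in every library. Their summed level was lower in *il11a*OE hearts, at 23670 to 38151 CPM against 54122 to 73818 CPM in control hearts of 7 mpt, and at 40802 to 48594 CPM against 61404 to 71591 CPM in control hearts of 7 dpt. Of the 9 markers, 7 were lower at each time point at an edgeR adjusted p under 0.05, beside 17.1% of all genes at 7 dpt and 12.2% at 7 mpt. The natriuretic peptide gene *nppa* was higher at 7 dpt (log2 fold change 0.98, edgeR adjusted p = 0.00127) and at 7 mpt (0.96, adjusted p = 0.0199), as was the troponin gene *tnni1b* at 7 dpt (0.84, adjusted p = 0.0024). In such bulk samples, fewer cells of a type and less RNA per cell cannot be told apart.

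All 7 vitellogenins were detected in these hearts, at low levels. Their summed level at 7 mpt was 5.30 and 3.04 CPM in *il11a*OE F libraries and 0.783 and 1.33 CPM in *il11a*OE M libraries, against 10.2 and 82.3 CPM in control F libraries and 5.26 and 13.1 CPM in control M libraries. Control library F2 thus stood far above the other 7. The tests of the vitellogenins at 7 mpt are given below with and without it. At 7 dpt the sum was 2.32, 3.52 and 1.80 CPM in *il11a*OE libraries against 6.73, 9.88 and 5.24 CPM in control libraries. These did not overlap, and among single genes 24.3% lay below and 28.2% above without overlap. The sums leave out *vtg8*, a vitellogenin outside the members that lay on the opposite side. At 7 dpt *vtg8* had 3.59, 3.33 and 3.27 CPM in *il11a*OE libraries against 1.04, 0.364 and 1.02 CPM in control libraries, so the gap depends on the genes summed.

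The *vtg1* transcript, one of the main yolk precursors, followed the letter most closely. *vtg1* had 258 and 156 counts (1.71 and 1.44 CPM) in the *il11a*OE F libraries and 6 and 8 counts (0.0470 and 0.0983 CPM) in the *il11a*OE M libraries. In control hearts it had 360 and 4700 counts (4.03 and 51.5 CPM) in the F libraries and 0 counts in both M libraries, where a count of 0 allows up to 0.0870 CPM on average (3 read pairs per library, which are 6 counts because each mate was counted). All 4 F libraries lay above all 4 M libraries. Set against that floor, *vtg1* was at least 319-fold higher in the control F than in the control M libraries, and still at least 46.3-fold higher when the F library with the lower level was taken alone. Floors and folds of this kind cover counting error only.

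*vtg5* had the same zeros. It had 94 and 24 counts (0.624 and 0.222 CPM) in *il11a*OE F libraries, 12 and 18 counts (0.0939 and 0.221 CPM) in *il11a*OE M libraries, 20 and 594 counts (0.224 and 6.51 CPM) in control F libraries and 0 counts in both control M libraries. The F libraries lay above the M libraries here too, but by a margin of only 0.222 against 0.221 CPM at the closest pair. In control hearts *vtg5* was at least 38.7-fold higher in the F than in the M libraries by the mean, and at least 2.57-fold by the F library with the lower level. These 2 genes were the members whose F and M libraries did not overlap, and both were higher in F. Of all genes tested, 2.41% were higher in F and 1.54% lower in F without overlap.

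**Figure D1:**
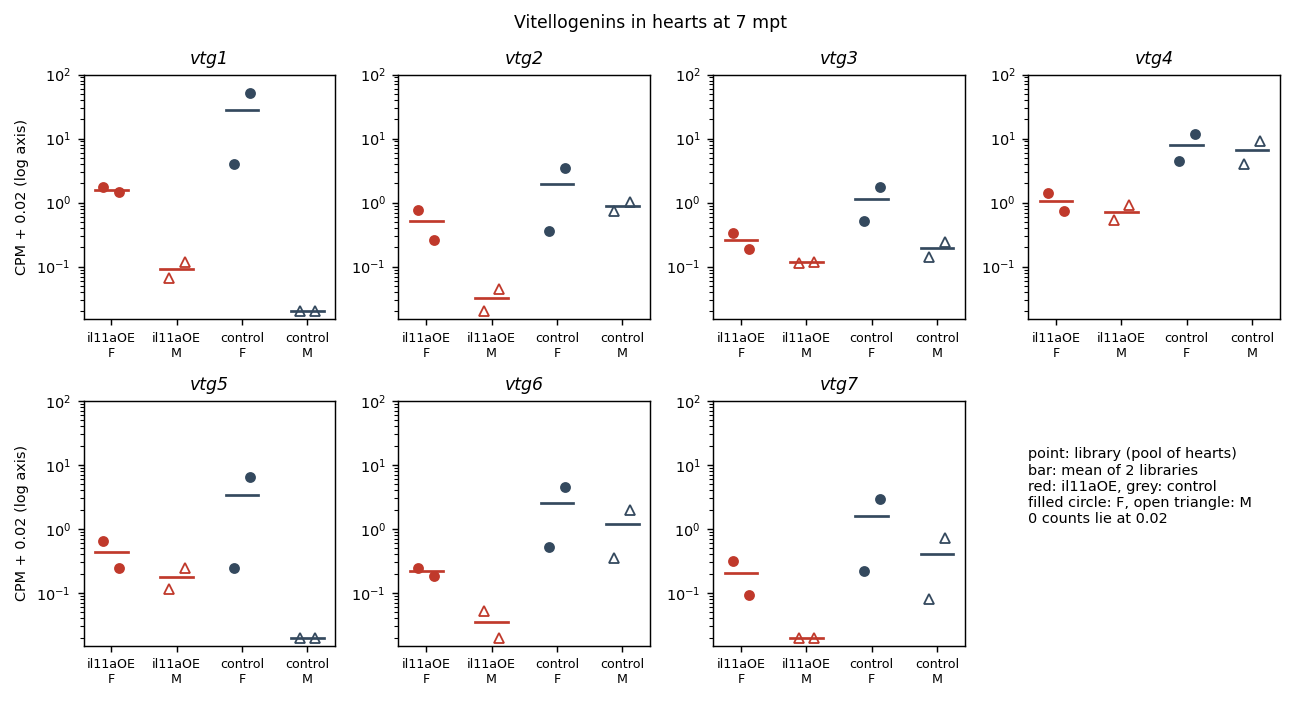
Levels of the 7 vitellogenins at 7 mpt, in CPM with 0.02 added on a log axis, for each library (points) with the mean of the 2 libraries of a class (bars). *vtg1* and *vtg5* lie at the bottom of the axis in both control M libraries, whereas *vtg4* is at 4.04 and 9.23 CPM there, and in every panel the top point of the control F class is library F2.

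*vtg4* was separated by genotype and not by letter. It had 206 and 78 counts (1.37 and 0.722 CPM) in *il11a*OE F libraries and 66 and 72 counts (0.517 and 0.885 CPM) in *il11a*OE M libraries, against 394 and 1064 counts (4.41 and 11.7 CPM) in control F libraries and 272 and 652 counts (4.04 and 9.23 CPM) in control M libraries. Every *il11a*OE library lay below every control library, as in 13.8% of genes (17.0% lay above), and within each genotype the F and M libraries overlapped. The make-up of the family thus varied between libraries. In the control M libraries *vtg4* made up 76.8% and 70.3% of the counts summed over *vtg1* to *vtg7*, and *vtg1* 0%. In control library F2 *vtg1* made up 62.5% of that sum and *vtg4* 14.2%.

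The remaining vitellogenins were intermediate. *vtg2* had 0.757 and 0.241 CPM in *il11a*OE F and 0 and 0.0246 CPM in *il11a*OE M libraries, against 0.336 and 3.51 CPM in control F and 0.713 and 0.991 CPM in control M libraries. *vtg3* had 0.319 and 0.167 CPM in *il11a*OE F and 0.0939 and 0.0983 CPM in *il11a*OE M libraries, against 0.492 and 1.73 CPM in control F and 0.119 and 0.226 CPM in control M libraries. For *vtg3* the F libraries lay above the M libraries within each genotype, whereas for *vtg2* the classes overlapped in control hearts, and a gap of this kind within a class of 2 against 2 libraries occurred in 21.4% of genes in *il11a*OE and in 19.4% in control hearts. *vtg6* had 0.226 and 0.167 CPM in *il11a*OE F and 0.0313 and 0 CPM in *il11a*OE M libraries, against 0.492 and 4.53 CPM in control F and 0.327 and 1.98 CPM in control M libraries. *vtg7* had 0.292 and 0.0740 CPM in *il11a*OE F and 0 CPM in both *il11a*OE M libraries, against 0.201 and 2.89 CPM in control F and 0.0594 and 0.708 CPM in control M libraries. For both genes the F libraries lay above the M libraries in *il11a*OE hearts, whereas in control hearts M2 lay above F1.

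The letter was tested over the 8 libraries with the genotype as an additive term, by edgeR's quasi-likelihood test with Benjamini-Hochberg adjustment over 20915 genes. A single gene passed an adjusted p of 0.05, 0.00478% of those tested, and 2262 genes had an unadjusted p under 0.05. No member passed. The log2 fold change of F over M was above 0 for all 7 vitellogenins, with a median of 2.78 against 0.03 over all genes. For *vtg1* it was 7.33 (SE 1.69, unadjusted p = 0.00358, edgeR adjusted p = 0.245), and DESeq2 gave an adjusted p of 0.000411 for it, in a fit that called 607 genes. Without control library F2 the value for *vtg1* was 6.05 (adjusted p = 0.182), and over its other alternatives the adjusted p of edgeR and limma-voom fits lay between 0.155 and 0.695. The fitted values of *vtg1* and *vtg5* rest on zeros and are no bounds. Those of *vtg2*, *vtg6* and *vtg7* rest in part on zeros too, in *il11a*OE M libraries.

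The other vitellogenins had smaller letter differences. The log2 fold change of F over M was 4.28 (SE 2.02) for *vtg5*, 3.26 (SE 1.35) for *vtg7*, 2.78 (SE 1.21) for *vtg2*, 2.02 (SE 0.99) for *vtg6*, 2.01 (SE 0.70) for *vtg3* and 0.43 (SE 0.41) for *vtg4*, with edgeR adjusted p-values from 0.359 to 0.745. Without control library F2 these were 2.93 for *vtg5*, 3.57 for *vtg7*, 3.16 for *vtg2*, 1.73 for *vtg6*, 1.40 for *vtg3* and 0.13 for *vtg4* (adjusted p from 0.556 to 0.955), and the median over the 7 vitellogenins was 2.93 against 0.04 over all genes. The gene that passed was *SLC7A7*, named here because it was the only one, an amino acid transporter subunit, with 4350, 3164, 970 and 670 counts in the F1, F2, M1 and M2 libraries of *il11a*OE hearts and 748, 726, 174 and 174 in those of control hearts (log2 fold change 1.79, SE 0.13, edgeR adjusted p = 0.00416).

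The genotype was compared next, at each time point alone. At 7 mpt, 4928 of 18689 genes passed an adjusted p of 0.05 in edgeR (26.4%), 12.2% lower and 14.2% higher in *il11a*OE, and 2 of the 7 vitellogenins were lower and none higher. *vtg4* averaged 0.873 ± 0.363 CPM in *il11a*OE and 7.33 ± 3.73 CPM in control hearts (SD, n = 4 each), a log2 fold change of -3.07 (SE 0.45, edgeR adjusted p = 0.000997). It was lower within the F libraries (-2.94, adjusted p = 0.0251) and within the M libraries (-3.25, adjusted p = 0.0143) alike, and without control library F2 (-2.75, adjusted p = 0.00262). The values within a letter are contrasts from a fit to all 8 libraries. *vtg6* averaged 0.106 ± 0.108 CPM in *il11a*OE and 1.83 ± 1.95 CPM in control hearts (SD, n = 4 each), with no overlap and a log2 fold change of -4.07 (SE 1.18, edgeR adjusted p = 0.0306). This call was lost without control F2 (-3.10, adjusted p = 0.0899), without control M2, without *il11a*OE F2 or without *il11a*OE M1, with adjusted p-values over the 8 fits that leave out a library from 0.0269 to 0.0899.

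The other 5 vitellogenins did not pass, with log2 fold changes of *il11a*OE over control from -4.06 (*vtg1*, SE 2.11, edgeR adjusted p = 0.202) to -1.91 (*vtg3*, SE 0.88, adjusted p = 0.148). The median over the 7 was -3.07, against 0.03 over all genes tested, and without control library F2 it was -1.39 against 0.07. The values of *vtg1* and *vtg5* varied with the letter. Both genes had 0 counts in the control M libraries and a few counts in the *il11a*OE M libraries, so that their log2 fold changes within the M libraries were 5.79 and 6.94 (adjusted p = 0.351 and 0.155), values that rest on zeros, and within the F libraries -4.13 and -2.98 (adjusted p = 0.0716 and 0.255). Without control library F2 the value was -0.70 for *vtg1* (adjusted p = 0.839) and 1.91 for *vtg5* (adjusted p = 0.404), and it was -1.39 for *vtg2*, -0.71 for *vtg3* and -1.77 for *vtg7* (adjusted p from 0.467 to 0.593).

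At 7 dpt, 7318 of 19647 genes passed in edgeR (37.2%), of which the part lower in *il11a*OE came to 17.1% and the part higher to 20.2%. Of the 7 vitellogenins, 5 had enough counts to be tested, and 2 of them were lower and none higher. *vtg4* had 129, 145 and 62 counts (1.43, 2.18 and 0.683 CPM) in *il11a*OE libraries, against 364, 453 and 196 counts (5.72, 7.85 and 3.27 CPM) in control libraries. The groups did not overlap, with *il11a*OE below control as in 24.3% of genes (28.2% lay above), and the log2 fold change was -1.98 (SE 0.49, edgeR adjusted p = 0.0222). The call was lost in 3 of the 6 fits that leave out a library, which were those without control 1, control 2 or *il11a*OE 1, with adjusted p-values of up to 0.0770. *vtg2* had 14, 15 and 10 counts (0.155, 0.226 and 0.110 CPM) in *il11a*OE libraries, against 22, 40 and 20 counts (0.346, 0.694 and 0.334 CPM) in control libraries, a log2 fold change of -1.49 (SE 0.46, edgeR adjusted p = 0.0427). This call was lost in all 6 fits that leave out a library, with adjusted p-values from 0.0538 to 0.135.

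The other vitellogenins of 7 dpt had 0 to 48 counts per library. *vtg1* had 12, 1 and 0 counts in *il11a*OE libraries against 13, 3 and 28 in control libraries, and *vtg5* had 4, 5 and 8 against 1, 2 and 9. *vtg6* had 9, 8 and 1 counts in *il11a*OE libraries against 4, 10 and 7 in control libraries, and neither *vtg5* nor *vtg6* passed the filter on low counts. *vtg3* had 9, 37 and 37 counts against 23, 48 and 20, and *vtg7* had 33, 23 and 45 against 1, 14 and 34. Groups overlapped for all 5 genes, and the 3 of them that were tested did not pass.

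**Figure D2:**
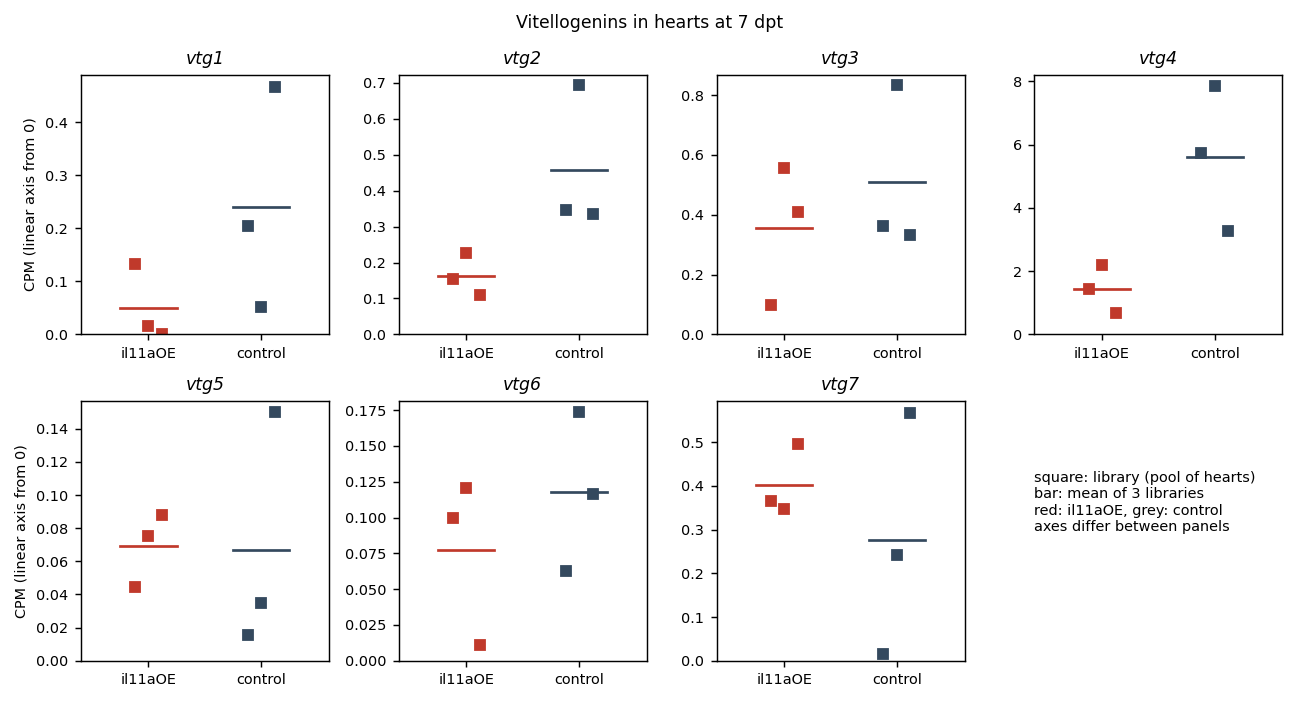
Levels of the 7 vitellogenins at 7 dpt in CPM on linear axes that start at 0 and differ between panels, for each library (squares) with the mean of 3 libraries (bars). The *il11a*OE libraries of *vtg4* (0.683 to 2.18 CPM) and *vtg2* (0.110 to 0.226 CPM) lie below those of the controls, and the groups overlap in the other panels.

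Per kb of exon and among *vtg1* to *vtg7*, *vtg4* was the highest in all 6 libraries of 7 dpt. It was at 0.153 to 0.490 CPM per kb in *il11a*OE and 0.734 to 1.76 CPM per kb in control hearts. At 7 mpt it was the highest of these genes in all 4 M libraries and in control F1. Of the same genes, *vtg1* was the highest in both *il11a*OE F libraries (0.373 and 0.314 CPM per kb) and in control F2 (11.2 CPM per kb). The next gene in each of these 3 libraries was *vtg4*, at 0.307, 0.162 and 2.62 CPM per kb.

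An eighth vitellogenin gene next to the cluster, *vtg8* (chromosome 22, 24888649 to 24900385, minus strand), was no member and was looked at after its values were seen. It had 134, 50, 240 and 124 counts in the F1, F2, M1 and M2 libraries of *il11a*OE hearts of 7 mpt, against 10, 20, 4 and 12 counts in those of control hearts. At 7 dpt it had 324, 221 and 297 counts in *il11a*OE libraries against 66, 21 and 61 in control libraries. It thus lay on the opposite side to *vtg4* at both time points, higher in *il11a*OE with a log2 fold change of 3.07 (SE 0.62, edgeR adjusted p = 0.00551) at 7 mpt and 2.07 (SE 0.38, edgeR adjusted p = 0.00677) at 7 dpt. In the contrast within the F libraries of 7 mpt it did not pass (2.02, edgeR adjusted p = 0.134). Per kb of exon, *vtg8* lay above *vtg4* in the 3 *il11a*OE libraries of 7 dpt (0.766, 0.710 and 0.699 CPM per kb). It was above *vtg4* also in the *il11a*OE M libraries of 7 mpt (0.401 and 0.325 CPM per kb), and below it in all other libraries. Some 0.854% of its exon bases overlap another gene.

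The oestrogen receptors differed from one another. *esr1*, the alpha receptor through which oestradiol is best known to act on vitellogenin genes in the fish liver, did not pass at either time point. At 7 mpt it had 3.64 and 5.54 CPM in *il11a*OE F and 3.87 and 3.07 CPM in *il11a*OE M libraries, against 4.16 and 3.66 CPM in control F and 3.89 and 2.29 CPM in control M libraries. All classes overlapped, and the log2 fold change was 0.20 (SE 0.27, edgeR adjusted p = 0.654) for the genotype and 0.37 (SE 0.25, edgeR adjusted p = 0.631) for F over M. At 7 dpt it had 3.06, 3.03 and 2.77 CPM in *il11a*OE libraries against 4.78, 2.497 and 4.12 CPM in control libraries (log2 fold change -0.37, SE 0.24, edgeR adjusted p = 0.280), and without control 2 it passed as lower in *il11a*OE (-0.60, adjusted p = 0.0295).

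*esr2b* was lower in *il11a*OE hearts. At 7 dpt it had 418, 223 and 308 counts (4.63, 3.36 and 3.39 CPM) in *il11a*OE libraries, against 647, 610 and 611 counts (10.2, 10.6 and 10.2 CPM) in control libraries. The control libraries lay close together and above all *il11a*OE libraries, and the log2 fold change was -1.44 (SE 0.15, edgeR adjusted p = 0.000819). This call held in all 6 fits that leave out a library, with adjusted p-values of up to 0.00495. At 7 mpt it had 4.14 and 2.44 CPM in *il11a*OE F and 3.41 and 3.98 CPM in *il11a*OE M libraries, against 6.83 and 6.62 CPM in control F and 7.64 and 3.74 CPM in control M libraries. Control M2 overlapped the *il11a*OE libraries there, and the log2 fold change was -0.83 (SE 0.27, edgeR adjusted p = 0.0485). That call was lost in 7 of the 8 fits that leave out a library, the exception being the fit without control M2 (adjusted p = 0.0148), with a highest adjusted p of 0.132. For the letter, *esr2b* had a log2 fold change of 0.04 (SE 0.28).

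*esr2a* was higher in *il11a*OE hearts at 7 dpt. It had 386, 297 and 696 counts (4.27, 4.47 and 7.67 CPM) in *il11a*OE libraries, against 158, 99 and 78 counts (2.48, 1.72 and 1.30 CPM) in control libraries. Groups did not overlap, the log2 fold change was 1.58 (SE 0.33, edgeR adjusted p = 0.0108), and the call held in all 6 fits that leave out a library. The pair of beta receptors thus moved to opposite sides at 7 dpt. Of the 3 receptors, 1 was higher and 1 lower, beside the 20.2% and 17.1% of all genes given above.

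At 7 mpt *esr2a* split by letter within *il11a*OE hearts. It had 246 and 290 counts (1.63 and 2.68 CPM) in *il11a*OE F and 16 and 6 counts (0.125 and 0.0738 CPM) in *il11a*OE M libraries, against 44 and 14 counts (0.492 and 0.153 CPM) in control F and 96 and 18 counts (1.43 and 0.255 CPM) in control M libraries. Both *il11a*OE F libraries lay above both control F libraries, and both *il11a*OE M libraries lay below both control M libraries, an arrangement that 1.5% of genes showed (1.4% showed the reverse). Over all 8 libraries the genotype did not pass (log2 fold change 0.96, SE 1.11, edgeR adjusted p = 0.591), nor did the letter (1.46, SE 1.62, edgeR adjusted p = 0.792). The difference between the letter effects of both genotypes was tested as an interaction term, with 2 libraries per class, and for *esr2a* it was 5.78 on the log2 scale (SE 1.38, unadjusted p = 0.00289, edgeR adjusted p = 0.565). No gene of 20915 passed that test in edgeR (0.0%), 1264 had an unadjusted p under 0.05, and DESeq2 called 188, *esr2a* among them (adjusted p = 0.00815). For *vtg1* and *vtg5* the interaction was -9.93 each (unadjusted p = 0.0305 and 0.0170, edgeR adjusted p = 0.779 and 0.745), again on zeros. For *il11a*, the induced gene, it was -1.32 (SE 0.31, unadjusted p = 0.00247, edgeR adjusted p = 0.534). *il11a* averaged 301 CPM in *il11a*OE F and 80.6 CPM in control F libraries, and 384 and 41.1 CPM in the M libraries. Its part in the differences by letter was not tested. *esr2a*, *vtg1*, *vtg5* and *il11a* each passed in 1 alternative fit, and none did with a library left out.

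**Figure D3:**
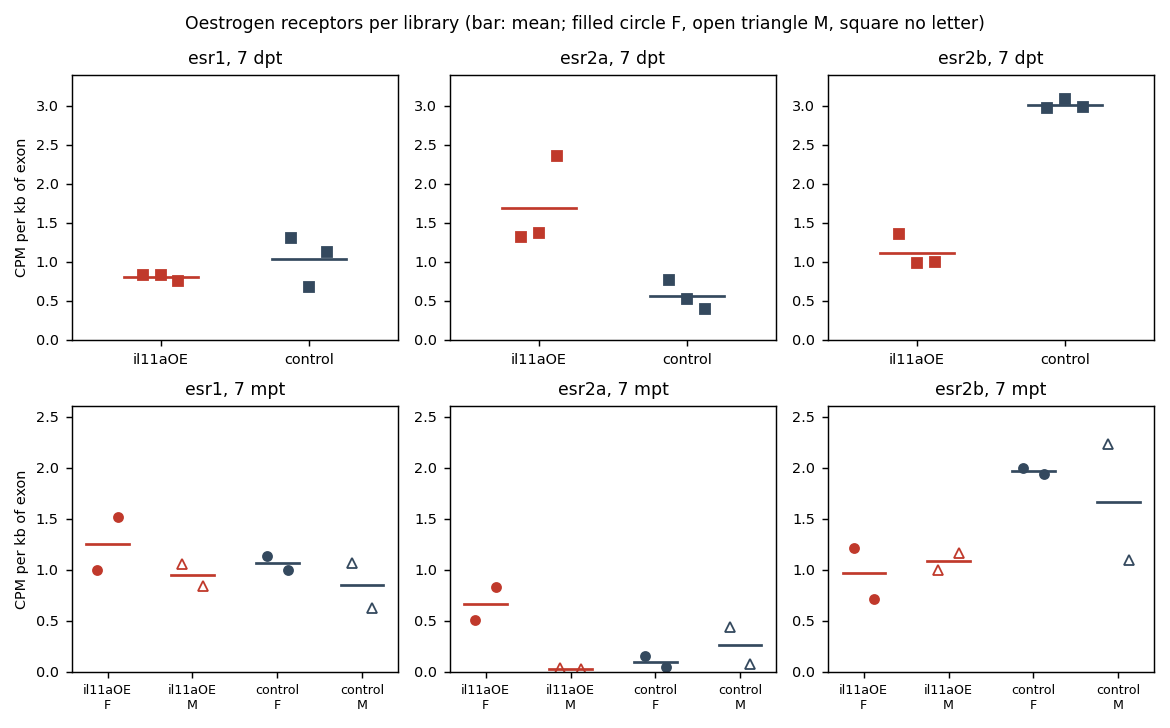
Oestrogen receptor levels per library in CPM per kb of exon on linear axes from 0, at 7 dpt in the top row and at 7 mpt in the bottom row, with the mean of each class as a bar. At 7 dpt *esr2a* of *il11a*OE hearts lies above and *esr2b* below the controls, and at 7 mpt *esr2a* is highest in the *il11a*OE F libraries (0.503 and 0.826 CPM per kb).

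Per kb of exon, the order of the receptors differed between genotypes. In control hearts it was *esr2b*, *esr1* and *esr2a* in all 7 libraries of both time points, for example 1.94, 0.999 and 0.0472 CPM per kb in control F2, the library with the most vitellogenin. In *il11a*OE hearts of 7 dpt *esr2a* was the highest in 2 of 3 libraries (1.38 and 2.36 CPM per kb), and in the remaining one *esr2b* (1.35) and *esr2a* (1.32) were close. In *il11a*OE hearts of 7 mpt *esr2b* led in F1 and M2 and *esr1* in F2 and M1, where *esr1* (1.06) and *esr2b* (0.998) differed little in M1. The 3 receptors summed were at 7.13 to 10.7 CPM in *il11a*OE and at 6.28 to 12.96 CPM in control hearts of 7 mpt, and did not stand apart in control F2 (10.4 CPM).

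**Figure D4:**
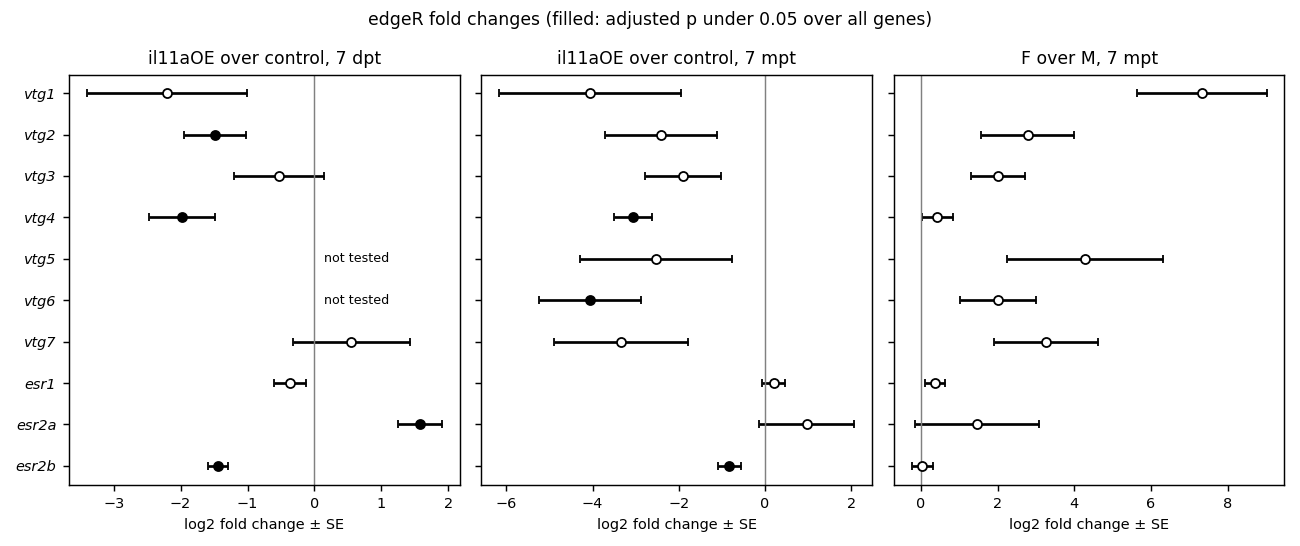
Log2 fold changes of the 10 members from edgeR, with SE derived from its F statistic, for *il11a*OE over control at 7 dpt and 7 mpt and for F over M at 7 mpt. Filled points have an adjusted p under 0.05 over all genes. Points of *vtg4* and *esr2b* are filled in both genotype panels, and no point is filled in the letter panel, where *vtg1* lies at 7.33.

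Relatives of the oestrogen receptors were looked at as a list of 10 genes, of which 6 were tested in each genotype comparison. At 7 mpt 2 were lower in *il11a*OE and none higher, beside 12.2% and 14.2% of all genes, with a median log2 fold change of -0.35 against 0.03 over all genes. These were *esrra*, an orphan receptor that controls mitochondrial genes (-2.07, SE 0.23, edgeR adjusted p = 0.000267), and *ar*, the androgen receptor (-1.26, SE 0.26, edgeR adjusted p = 0.00552). At 7 dpt 4 were lower and none higher (median -0.83 against 0.02), beside 17.1% and 20.2% of all genes. Among the 4, *ar* was at -0.86 (adjusted p = 0.00281), the orphan receptor *esrrb* at -2.06 (adjusted p = 0.00365) and *esrra* at -0.80 (adjusted p = 0.00812). The summed cardiomyocyte markers were lower in *il11a*OE too, as given above, and their part in these results was not tested.

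Of 13 receptor coregulators, which link nuclear receptors to chromatin, 7 were lower and 2 higher in *il11a*OE hearts of 7 dpt. Of all genes 17.1% were lower and 20.2% higher (list median -0.47 against 0.02 over all genes). The corepressor *ncor1* was at -0.96 (SE 0.12, edgeR adjusted p = 0.00136), the acetyltransferase *ep300a* at -0.47 (SE 0.07, edgeR adjusted p = 0.00229) and the coactivator *ncoa1* at -0.65 (SE 0.11, edgeR adjusted p = 0.00427). At 7 mpt 2 of the 13 were lower, *ncor1* (-0.90, adjusted p = 0.00657) and the coactivator *ncoa3* (-0.44, adjusted p = 0.0217), and none was higher, a share near the 12.2% of all genes that were lower there (list median -0.03 against 0.03). Steroid synthesis and carrier genes were mostly too low to test, with 3 of 7 tested at each time point. The single call was *hsd17b3*, an enzyme of testosterone synthesis, lower in *il11a*OE at 7 dpt (-0.87, SE 0.24, edgeR adjusted p = 0.0299), as were 17.1% of all genes.

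Of 10 genes for lipid transfer relatives of vitellogenin, for its uptake and for yolk proteases, 7 were tested at each time point. A single one was lower at 7 mpt and none higher, beside 12.2% and 14.2% of all genes. At 7 dpt a single one was higher and none lower, beside 20.2% and 17.1%. *vldlr*, whose product in the ovary takes up vitellogenin, was lower in *il11a*OE hearts of 7 mpt (-1.45, SE 0.29, edgeR adjusted p = 0.00486), and *ctsd*, a lysosomal protease that cuts vitellogenin in eggs, was higher at 7 dpt (0.36, SE 0.08, edgeR adjusted p = 0.0121). In none of the lists did a gene pass for the letter.

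Markers of liver, ovary and blood were read beside the vitellogenins, since other tissue in a sample could hold their transcripts. The summed level of 17 liver markers at 7 mpt was 1419 to 3259 CPM in *il11a*OE and 346 to 685 CPM in control hearts, and 346 to 1619 CPM in F and 521 to 3259 CPM in M libraries. The sum was thus higher in *il11a*OE, but most of it came from *rbp4* and *tfa*, which carry retinol and iron. The 12 liver markers tested at 7 mpt had a median log2 fold change of 0.26 against 0.03 over all genes. Those that did not pass lay between -4.67 (*ambp*, edgeR adjusted p = 0.0579) and 1.04 (*itih2*, adjusted p = 0.371). Of the 12, 3 were higher in *il11a*OE and none lower, beside 14.2% and 12.2% of all genes. These were *fga*, a fibrinogen chain (7.92, SE 1.00, edgeR adjusted p = 0.000674), *tfa* (4.86, SE 0.79, edgeR adjusted p = 0.00223) and *cp*, a copper carrier (2.37, SE 0.56, edgeR adjusted p = 0.0121).

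Markers that are more particular to liver cells were low and uneven, and those given here were chosen after their values were seen. The apolipoprotein gene *apoa1b* had 10, 6, 64 and 80 counts in the F1, F2, M1 and M2 libraries of *il11a*OE hearts and 16, 154, 4 and 142 in those of control hearts. *serpina1* had 0, 0, 0 and 20 counts in *il11a*OE hearts and 0, 20, 0 and 20 in control hearts in the same order, and *uox*, the liver urate oxidase, had 4 counts in control M2 and 0 in the other 7 libraries. *fabp10a*, a fatty acid carrier of the liver, had 260, 2, 52 and 56 counts in *il11a*OE hearts and 142, 68, 32 and 132 in control hearts, and *ambp*, a plasma protein gene, had 24, 0, 0 and 0 counts in *il11a*OE hearts and 14, 28, 52 and 230 in control hearts. Control F2 and control M2 were thus close in *apoa1b* and *serpina1* and differed in *fabp10a* and *ambp*, and they had 14 of 17 liver markers at 10 counts or more each, against 4 to 12 in the other libraries. The 2 libraries had 4700 and 0 counts of *vtg1*, 594 and 0 of *vtg5*, 1064 and 652 of *vtg4* and 414 and 140 of *vtg6*. With both of them left out, an alternative chosen after seeing the data, *vtg4* was lower in *il11a*OE (-2.27, SE 0.42, edgeR adjusted p = 0.0108), *vtg6* did not pass (-1.92, adjusted p = 0.381), and *vtg1* had a log2 fold change of F over M of 5.45 (SE 0.99, adjusted p = 0.155). The part of liver transcripts in the vitellogenin levels was not tested.

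At 7 dpt the summed liver markers were lower in *il11a*OE (313 to 395 CPM) than in control hearts (670 to 823 CPM). Most of that sum came from *rbp4* (280 to 347 CPM against 638 to 793 CPM). The 7 liver markers tested had a median log2 fold change of 0.48 against 0.02 over all genes. Of them 2 were lower and 1 higher, beside 17.1% and 20.2% of all genes. Lower were *rbp4* (-1.19, SE 0.12, edgeR adjusted p = 0.00072) and *fabp10a* (-3.91, SE 0.54, edgeR adjusted p = 0.00227), whereas *fga* was higher (7.21, SE 1.10, edgeR adjusted p = 0.00335). *fga* had 34, 57 and 180 counts in *il11a*OE and 0, 0 and 1 counts in control libraries, so its value rests on zeros. The other tested markers lay between -0.85 (*ambp*, adjusted p = 0.446) and 1.28 (*cp*, adjusted p = 0.111). *fabp10a* had 5, 1 and 2 counts in *il11a*OE and 41, 20 and 31 counts in control libraries, the same side as *vtg4*, and its part in that result was not tested.

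Ovary markers were uneven. The egg coat genes *zp3*, *zp2.1* and *zp2.3* and the oocyte gene *figla*, named after their values were seen, had 0 counts in all 8 libraries of 7 mpt. So were the next genes. *bmp15* had 10, 0, 0 and 2 counts in *il11a*OE libraries (F1, F2, M1, M2). In control libraries it had 16, 22, 16 and 12 (-3.07, edgeR adjusted p = 0.0867). *zar1* had 18, 10, 14 and 12 against 0, 0, 0 and 4 (3.02, adjusted p = 0.129). *ddx4* and *dazl* were highest in *il11a*OE M1 (24 and 14 counts), *zp2.2* in M2 (10), and *gdf9* and *zp2.5* in F2 (10 and 8). *buc*, an organizer of the oocyte, stood at 4.89 and 12.7 CPM in the F and 1.19 and 0.836 CPM in the M libraries of *il11a*OE hearts, against 0.806 and 1.14 CPM in the F and 1.63 and 1.05 CPM in the M libraries of control hearts. It did not pass for the letter (log2 fold change 1.35, SE 0.83, edgeR adjusted p = 0.598) or for the interaction (3.58, SE 0.74, unadjusted p = 0.00121, edgeR adjusted p = 0.389). *zp3b* had 196 to 336 counts in *il11a*OE and 54 to 82 counts in control libraries. The summed level of 13 ovary markers was 3.59 to 16.1 CPM in *il11a*OE and 1.63 to 2.67 CPM in control hearts, most of it from *buc* and *zp3b*. Summed by letter it was 1.63 to 16.1 CPM in F and 2.41 to 3.76 CPM in M libraries. *zp3b* was higher in *il11a*OE at 7 mpt (1.41, SE 0.36, edgeR adjusted p = 0.0162) and at 7 dpt (1.32, SE 0.24, edgeR adjusted p = 0.00592), and *buc* at 7 dpt (0.93, SE 0.28, edgeR adjusted p = 0.0388).

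The 5 erythroid markers summed to 1075 to 5222 CPM in *il11a*OE and 1085 to 3602 CPM in control hearts of 7 mpt, and to 1688 to 5222 CPM in F and 1075 to 2224 CPM in M libraries. The highest control value was that of library F2. At 7 dpt they were lower in *il11a*OE (913 to 1514 CPM) than in control hearts (1857 to 4279 CPM). Of the 5 genes 4 passed as lower, beside 17.1% of all genes. Among them were the globin *hbaa1* (-1.43, SE 0.32, edgeR adjusted p = 0.0159), the heme synthesis gene *alas2* (-1.34, SE 0.34, edgeR adjusted p = 0.0228) and the anion exchanger *slc4a1a* (-1.51, SE 0.41, edgeR adjusted p = 0.0316). The part of ovary or blood transcripts in the vitellogenin levels was not tested.

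**Figure D5:**
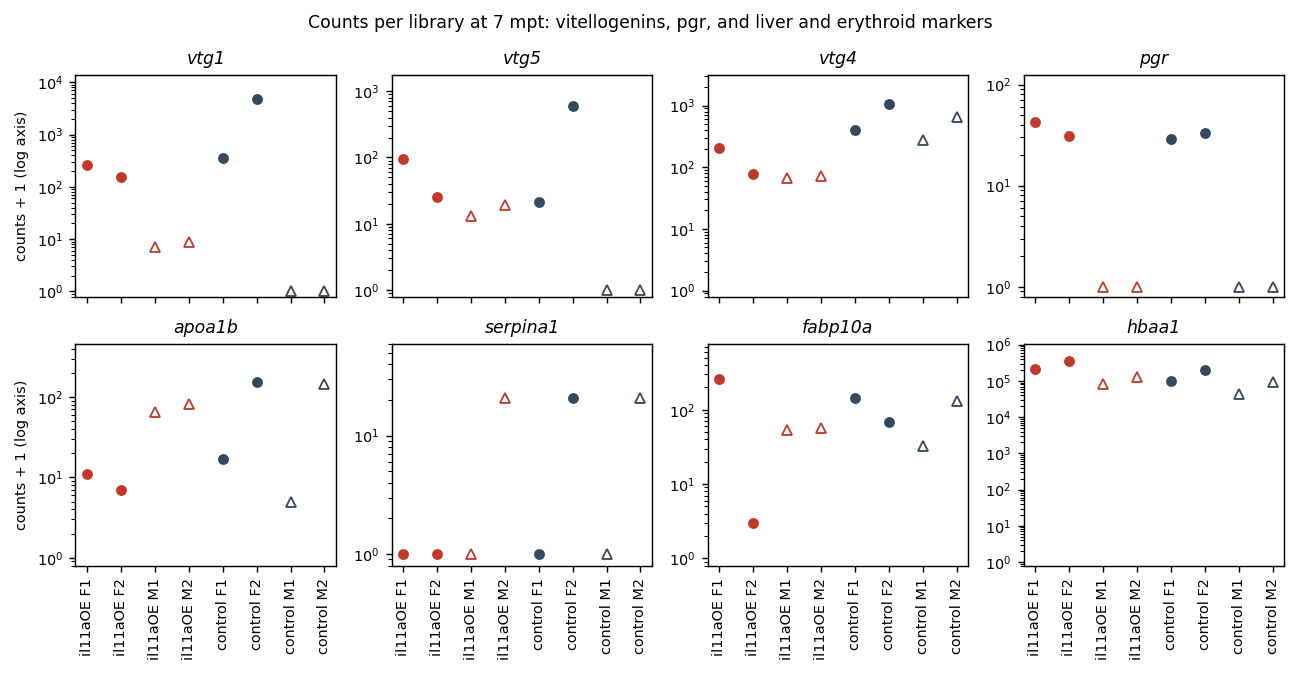
Counts plus 1 on log axes in each of the 8 libraries of 7 mpt, for *vtg1*, *vtg5* and *vtg4*, the progesterone receptor *pgr*, the liver markers *apoa1b*, *serpina1* and *fabp10a* and the globin *hbaa1*. *apoa1b* is at 154 and 142 counts in control F2 and M2, where *vtg1* is at 4700 and 0 counts, and *pgr* is at 0 in all 4 M libraries.

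The 5 genes whose level followed the summed vitellogenins most closely over the 8 libraries of 7 mpt were *NR4A3*, *SEMA5A*, *sctr*, *PLCH2* and *TMEM37*, among 21157 genes compared. Likeness was the root mean square difference of log2(CPM + 0.5) profiles, each centred on its mean, and it was 0.634 for *NR4A3* and 0.826 for *TMEM37*, against 1.76 for the vitellogenin profile itself around its mean. *NR4A3*, an orphan nuclear receptor of the immediate early class, had 1802, 1786, 598 and 718 counts in the F1, F2, M1 and M2 libraries of *il11a*OE hearts, against 2774, 27662, 3198 and 7922 in those of control hearts. Control F2 was the highest library for all 5 genes, which comes with choosing them by likeness to the vitellogenin sum. This is a description over libraries that share their depth and scaling, with no test.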

How the data were processed

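Poly(A) RNA of uninjured hearts (14 libraries) was sequenced in 150 bp paired-end runs. Per the file headers and the methods, the authors trimmed reads with Cutadapt, aligned them with HISAT2 to GRCz11 and summarised exons of Ensembl release 104 with featureCounts 2.0.0. Strand was ignored, and multi-mapping or ambiguous reads were dropped. The deposited tables hold raw counts, to which 67.95% to 75.47% of reads contributed. Pairs were counted at 7 dpt and mates at 7 mpt, which raises counts without adding molecules. Gene symbols came from the reference names, the supplements and RefSeq. 84 of 93 list symbols were matched.

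From the deposited counts, genes were filtered with filterByExpr (minimum count 10), scaled with TMM and tested in edgeR 4.0.16 (limma 3.58.1, R 4.3.3) by quasi-likelihood with robust dispersion and Benjamini-Hochberg adjustment over all genes tested, at a threshold of 0.05. edgeR's test reports no SE, so the SE given is the absolute log2 fold change divided by the square root of its F statistic. Groups came from the labels. At 7 mpt the labels hold 4 libraries per group where the methods count 3 pools, and all were used. Libraries of the same genotype and time point, F against M pairs included, differed by far more than counting noise (chi-square per degree of freedom 49.2 to 343.4). Counting each mate raises these values at 7 mpt. None was taken for a duplicate, but this check cannot tell separate pools from repeat preparations of the same RNA. The methods speak of biological replicate pools. If the libraries are such pools, p-values measure the spread between them. In the genotype test of 7 mpt this spread also holds differences between F and M libraries, since the letter was no term there. Fits were tested on simulated counts. The alternatives were DESeq2 1.42.0 and its size factors, limma-voom with quality weights, other filters and no robust dispersion. Further ones were the replicate block, the letter as a covariate, halved counts and each library left out. Contrasts within each letter or genotype were taken from fits to all libraries of 7 mpt. The members and lists were chosen with earlier results of these data known. Named are the members, up to 3 called genes of each list with the smallest p, and the 5 genes most like the summed vitellogenins. Others are marked as chosen after their values were seen. Sequences of the members are not shown here.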

Additional observations from a re-analysis of the deposited data

Results flagged for a closer look

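In control hearts of 7 mpt, library F2 lay far from the other 3 by Dixon's test for *vtg1* (51.5 CPM) and *vtg5* (6.51 CPM) and for the 7 vitellogenins summed (82.3 CPM). These were 3 of 28 groups tested, and chance alone marks about 1 in 20. The vitellogenin sum contains both genes, so the 3 are not independent.

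For *vtg1* and *esr2a* the values of the genotypes lay on opposite sides in F and M libraries, with no overlap in either class. The M side of *vtg1* lies at the floor, where 0 counts allow up to 6, so a rise there is not resolved. The difference of both log2 fold changes was -9.93 for *vtg1* (lower in *il11a*OE F, higher in *il11a*OE M by 6 and 8 counts against 0 and 0), and the downward and upward arrangement was found in 1.4% of genes. For *esr2a* it was 5.78 (higher in *il11a*OE F, lower in *il11a*OE M). Neither passed edgeR's interaction test over all genes (adjusted p = 0.779 and 0.565).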

How the results depend on the processing

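Of 704 values recomputed under the alternatives, 624 kept their direction and their side of the threshold or, for counts of calls, stayed within 1.5 times. Many of these belong to tests that had not passed. At 7 mpt, *vtg4* kept its genotype call in 20 of 20 alternatives, *vtg6* in 11 of 19 and *esr2b* in 8 of 20. At 7 dpt, *esr2a* and *esr2b* kept theirs in 13 of 13, *vtg4* in 10 of 13 and *vtg2* in 6 of 13. Leaving out the F2 and M2 control libraries together was chosen after seeing the data. Calls of the genotype numbered 7318 at 7 dpt and 4928 at 7 mpt, and with DESeq2 8210 and 6036. The contrast within the F libraries gave 2455 and that within the M libraries 3550, in a fit to all 8 libraries. The letter test, with a single call, gave 607 calls with DESeq2, 36 with no filter beyond 1 count, 14 with at least 10 counts in every library, 9 within control libraries, 6 without control F2 and M2, 4 within *il11a*OE libraries, 3 with limma-voom, 2 with no robust dispersion, 2 with halved counts, and 1 to 31 with a library left out, 31 of them without control M2. The interaction, with 0 calls, gave 188 with DESeq2, 15 with no filter and 0 to 5 with a library left out. The cause was not tested.

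Signs turned for members that had not passed. At 7 dpt the range with a library left out was -0.99 to 0.011 for *vtg3* and -0.0096 to 1.65 for *vtg7*. For the genotype at 7 mpt, *esr1* came to -0.0015 without control F2 and M2, *esr2a* to -0.062 with the letter as a covariate and -3.04 within M libraries, *vtg1* to 0.93 with limma-voom and 5.79 within M libraries, and *vtg5* to 1.90 with limma-voom, 6.94 within M libraries, 1.35 without control F2 and M2, and -3.26 to 1.91 with a library left out. For the letter, *esr2a* came to -1.38 and *vtg8* to 0.52 within control libraries, *il11a* to -0.35 within *il11a*OE libraries, and *esr2b* to -0.16 there and without control F2 and M2, and to -0.17 to 0.22 with a library left out.

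With the replicate number as a block, 6047 genes passed at 7 dpt and 4484 at 7 mpt, *vtg6* (adjusted p = 0.0607) and *esr2b* (adjusted p = 0.0964) at 7 mpt did not, *vtg5* came to 1.35, and no other member's call changed. The numbers were not taken to pair the pools. Deviations of same-numbered pools correlated at 0.00 (number 1), -0.02 and 0.16 at 7 dpt and at -0.11 (F) and -0.02 (M) at 7 mpt. With 2 libraries per class at 7 mpt, different-numbered pools give the same values with the sign turned (0.11 and 0.02). These correlations therefore cannot decide whether the pools were paired, and with so few pools those of 7 dpt say little. At 7 mpt, *esr2b* was also lost with the letter as a covariate (adjusted p = 0.0581), and *vtg6* with limma-voom (adjusted p = 0.106). Low counts limit what can be seen of *vtg1*, *vtg5* and *vtg6* at 7 dpt, and 2 libraries per class limit every statement on the letter within a genotype.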

Other observations

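Among the receptor relatives, *pgr*, the progesterone receptor, was singled out after its values were seen. It had 42 and 30 counts in the F and 0 and 0 counts in the M libraries of *il11a*OE hearts, and 28 and 32 counts in the F and 0 and 0 counts in the M libraries of control hearts. Only 2 of 32520 genes had at least 10 counts in every F library and 0 in every M library, *pgr* and *si:ch211-248k15.1*. The reverse was found for 1 gene, *slc51a*, a subunit of a transporter of bile acids and steroids, with 120 and 96 counts in *il11a*OE M and 28 and 340 counts in control M libraries. The letter effect of *pgr* did not pass in edgeR (log2 fold change 7.89, SE 1.46, unadjusted p = 0.00153, adjusted p = 0.194). Unlike *vtg1*, *pgr* was not raised in control library F2.

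*greb1*, an oestrogen-responsive gene of human breast cancer cells, was likewise singled out afterwards. Its letter effect was 2.18 (SE 0.49, unadjusted p = 0.0017, edgeR adjusted p = 0.197), with 590 and 1150 counts in the F and 322 and 86 counts in the M libraries of *il11a*OE hearts, and 656 and 714 counts in the F and 44 and 166 counts in the M libraries of control hearts. It was higher in *il11a*OE hearts of 7 dpt (0.94, SE 0.28, edgeR adjusted p = 0.0392), as was the nuclear receptor corepressor *nrip1a* (0.65, SE 0.12, edgeR adjusted p = 0.00612).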
